A study of Mus musculus with 20 samples.

Results

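Leukocytes enter the injured spinal cord by rolling on the vessel wall, arresting and crossing it, and the genes described here code for the main proteins of those steps. They are 9 genes, taken by symbol: the selectins *Selp* and *Sele*, the selectin ligand gene *Selplg*, the integrin chains *Itgal*, *Itgam*, *Itga4* and *Itgb2*, and the counter-receptors *Icam1* and *Vcam1*. Of these, 8 were among the 16003 genes of the single-cell count table, and *Sele* was present only in the unfiltered matrices, which list 24062 genes. For each gene, unique molecular identifiers (UMIs, 1 per captured RNA molecule) were summed within each of the 14 cell clusters that the authors deposited and within each of the 6 libraries, then scaled to a total of 1000000 UMIs in that cluster and library (CPM).

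The cells came from 1 cm of spinal cord around T9 of female C57BL/6J mice aged 8 to 10 weeks. Mice ate vehicle chow or chow with 1200 ppm of PLX5622, an inhibitor of the Csf1 receptor that depletes microglia, from 14 days before surgery, and had a T9 contusion or a sham laminectomy. Cords were collected at 7 or 28 days post-injury (dpi), while the labels of the sham libraries name both times together. Each of the 6 conditions (sham, 7 dpi and 28 dpi, on vehicle or PLX5622) was 1 library that pooled 3 to 4 mice, so no value has a replicate and no test was possible. The drug acts on the receptor wherever it is expressed, so the diet is not a manipulation of microglia alone. Another 14 bulk samples of the series were not analysed here.

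Rolling depends on P-selectin (*Selp*) and E-selectin (*Sele*), which activated endothelium presents to P-selectin glycoprotein ligand-1 (PSGL-1, from *Selplg*) on leukocytes. Arrest depends on leukocyte integrins: LFA-1 is the pair of *Itgal* and *Itgb2*, Mac-1 or CD11b/CD18 is the pair of *Itgam* and *Itgb2*, and VLA-4 is the pair of *Itga4* and *Itgb1*. LFA-1 and Mac-1 bind ICAM-1, and VLA-4 binds VCAM-1. In the cord, microglia also carry Mac-1 and PSGL-1 without having crossed a vessel.

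The vehicle libraries held 1795, 7439 and 9846 cells (sham, 7 dpi and 28 dpi) and the PLX5622 libraries 492, 504 and 940, with between 2606149 and 35694246 UMIs each and a median of 2268.5 to 5127 UMIs per cell. Between 4 and 35 cell barcodes of a library also occurred in another library. No doublet caller was run. The table held 49 to 289 cells per library with more than 3000 genes. The cord was not perfused before dissociation, so cells from blood inside vessels were part of every pool. Cluster names follow marker genes and mean "like": the cluster called T cell also expressed all 5 natural killer markers, and the cluster called fibroblast and pericyte expressed all 5 fibroblast and all 6 pericyte markers. The cells of the monocyte cluster expressed markers of monocytes and of dendritic cells. Here a cluster is compared only where it had at least 10 cells in a library, which leaves out the 9 cells of the monocyte-derived macrophage (MDM) cluster in the sham PLX5622 library.

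Pairs of values in parentheses are the lower and upper bounds of exact 95% intervals: Poisson for a CPM, conditional binomial for a ratio and Clopper-Pearson for a share. They cover counting error only. A ratio between 2 libraries is given as log2, and a gene was counted as past 2-fold when its log2 ratio was at least 1 in size, its interval excluded 0 and both libraries together held at least 50 UMIs of it. A count of 0 was set to a floor of 3 UMIs, which makes the ratio a lower bound before counting error. The share of all measured genes past that limit is printed beside each count of members.

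The 8 genes in the table were expressed in different sets of cells. Over the libraries, *Selplg* was highest in microglia (median 1057 CPM, range 585 to 2436), *Itgam* in neutrophils (567 CPM) and microglia (537 CPM), *Itgb2* in neutrophils (486 CPM), *Itgal* in neutrophils (238 CPM) and T cells (200 CPM), and *Itga4* in T cells (252 CPM) and monocytes (157 CPM). *Vcam1* was highest in astrocytes (median 164 CPM, range 114 to 277) and *Icam1* in microglia (median 50.7 CPM, range 44.3 to 84.7). For each of the 8 genes, the range over libraries of the highest cluster overlapped that of the next. *Itgb2* was thus found with both of its partners in neutrophils and monocytes, mainly with *Itgam* in microglia and MDMs, and mainly with *Itgal* in T cells.

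**Figure D1:**
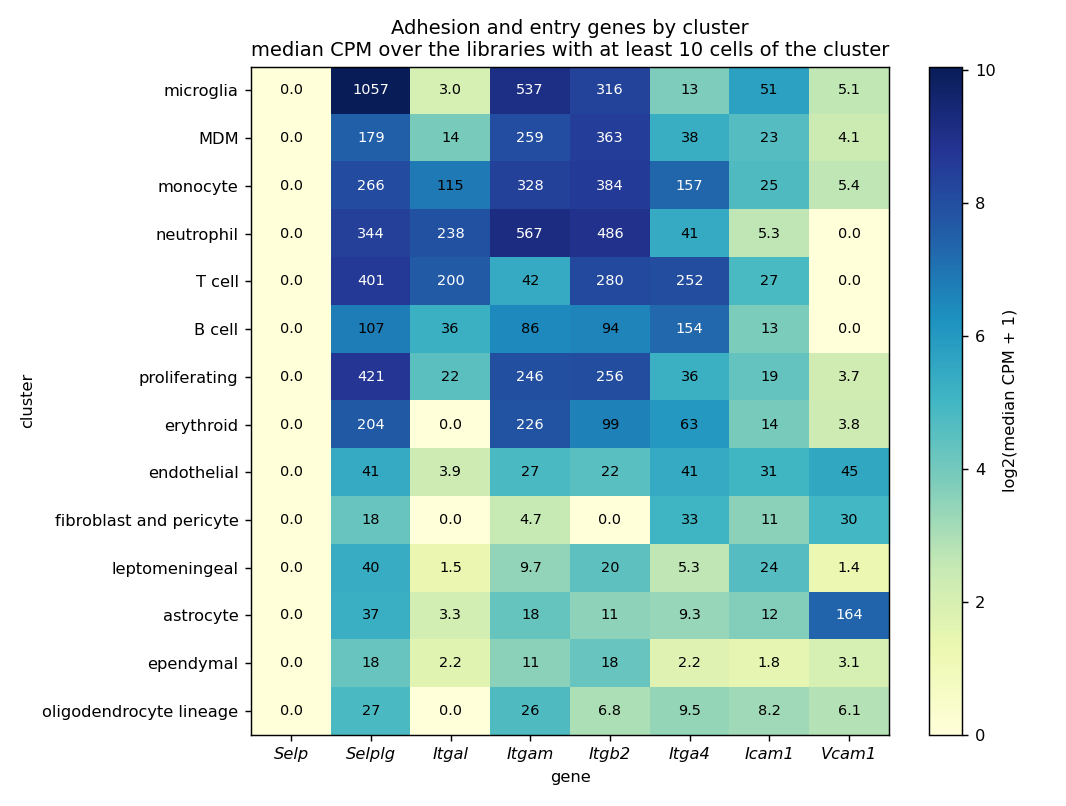
Heat map of the median CPM of the 8 genes (columns) in the 14 clusters (rows) over the libraries with at least 10 cells of the cluster; colour is log2(median CPM + 1) and the median CPM is written in each cell. *Selplg* stands out in microglia, *Vcam1* in astrocytes, *Itgal* in neutrophils and T cells, and *Selp* has a median of 0 in every cluster.

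The share of cells with a UMI was compared after each cell was thinned to 1000 UMIs, which left out shallower cells. *Selplg* was found in 51.5% of 5792 microglia, 31.1% of 615 T cells and 30.1% of 362 neutrophils, against 3.97% of 630 astrocytes and 4.18% of 622 ependymal cells, which should lack it. The source of those UMIs was not tested. *Itgam* was found in 36.2% of neutrophils and 34.8% of microglia, against 4.44% of astrocytes. *Itgal* was found in 24.0% of neutrophils, 18.2% of T cells and 8.87% of monocytes, against 0.317% of astrocytes and 0.518% of microglia, and *Itga4* in 19.0% of T cells, 16.03% of 992 monocytes and 12.8% of 437 B cells, against 0.794% of astrocytes. Before thinning, the median depth was 2201 UMIs in microglia, 1692.5 in T cells, 1563 in neutrophils, 2872 in monocytes, 1584 in B cells, 1435.5 in astrocytes and 2675 in ependymal cells. The same cells carried both chains of an integrin most often in neutrophils, where 16.6% held *Itgam* with *Itgb2* and 9.39% *Itgal* with *Itgb2*. Both chains of VLA-4 (*Itga4* with *Itgb1*) were found together in 6.67% of T cells and 3.73% of monocytes.

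Among the selectins, *Sele* (chromosome 1, 164039614 to 164058487, plus strand; coordinates here are from RefSeq on GRCm38.p6) was nearly absent. Before the gene filter it had 3 UMIs in all, in 1 cell of the fibroblast and pericyte cluster of the sham PLX5622 library. E-selectin RNA was therefore not detectable at this depth in endothelial cells, where 0 of 1075 cells held a UMI, which allows a share of cells with a UMI, not of cells expressing the gene, of up to 0.279%.

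*Selp* (chromosome 1, 164115264 to 164150026, plus strand) had 133 UMIs in the table, and 118 of them lay in the monocyte cluster rather than in endothelium. In that cluster it was at 32.1 CPM (25.0, 40.6) at 7 dpi on vehicle, from 70 UMIs in 34 of 602 cells, and at 75.3 CPM (55.5, 99.8) at 28 dpi on vehicle, from 48 UMIs in 25 of 284 cells. It was at 0 UMIs in the 75 cells of this cluster in the sham vehicle library and in the 14, 29 and 63 of the sham, 7 dpi and 28 dpi PLX5622 libraries. The 2 injured vehicle libraries were thus the only ones with *Selp* in this cluster. For those counts of 0 the floor of 3 UMIs per library was 6.58 CPM in sham vehicle and 37.6 CPM in sham PLX5622. It was 11.4 CPM in 7 dpi PLX5622 and 9.63 CPM in 28 dpi PLX5622. By this floor the sham PLX5622 library could not show the level of 7 dpi. The *Selp* UMIs were also gathered in few cells, 5.65% of the cluster at 7 dpi on vehicle. Counts of 0 in the 14 sham and 29 7 dpi PLX5622 cells therefore limited the share of cells only weakly, which the floor does not show. Against that floor in sham, *Selp* was 4.88-fold higher at 7 dpi on vehicle (log2 2.29, with a lower bound of 1.95 from counting error). Its log2 ratio of 28 dpi to 7 dpi was 1.23 (0.67, 1.78). Endothelial cells held 3 *Selp* UMIs in all, 2 at 7 dpi and 1 at 28 dpi on vehicle. After thinning, 2.52% of cells of the monocyte cluster held *Selp*, against 0 of 5792 microglia (which allows a share of cells with a UMI of up to 0.0518% at this depth) and 0 of 437 B cells (up to 0.686%). Before thinning, 1 microglial cell held a *Selp* UMI. The table also sets to 0 any gene seen in fewer than 3 cells of a library, which removed 2 *Selp* UMIs from the sham PLX5622 library and 2 from the 28 dpi PLX5622 library. None of these lay in the monocyte cluster.

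The cells of the monocyte cluster that held *Selp* also had more of the Mac-1 chains than the other cells of that cluster in their library, so the promoter windows of *Selp* and *Itgam* are shown together. Each holds the 250 bases before the RefSeq start and the first 50 bases from it, on GRCm38.p6, and both genes lie on the plus strand. The capitals mark matches, on either strand, to 4 motifs: the TATA box as TATAAA, a core of PU.1 sites as GAGGAA, a core of Sp1 sites as GGGCGG, and the NF-kB consensus. No match overlapped another.
Selp, chr1:164115014-164115313: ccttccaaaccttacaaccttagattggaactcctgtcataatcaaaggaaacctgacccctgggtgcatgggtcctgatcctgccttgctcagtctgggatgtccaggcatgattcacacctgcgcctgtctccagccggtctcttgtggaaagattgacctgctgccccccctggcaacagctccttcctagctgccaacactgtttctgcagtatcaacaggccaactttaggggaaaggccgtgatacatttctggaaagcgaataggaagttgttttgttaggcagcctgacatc
Itgam, chr7:128062390-128062689: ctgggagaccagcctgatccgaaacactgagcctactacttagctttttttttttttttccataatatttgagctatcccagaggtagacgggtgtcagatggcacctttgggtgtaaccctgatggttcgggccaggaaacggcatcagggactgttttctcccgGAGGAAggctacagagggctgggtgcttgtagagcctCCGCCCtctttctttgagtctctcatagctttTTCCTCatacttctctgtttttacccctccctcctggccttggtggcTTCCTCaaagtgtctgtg
The *Itgam* window held GAGGAA 3 times, once forward and 2 times on the reverse strand, and GGGCGG once on the reverse strand. The *Selp* window held none of the 4 motifs. Of 32851 RefSeq windows of this length, 28.3% held GAGGAA, 35.7% GGGCGG, 13.6% TATAAA and 4.51% the NF-kB consensus. Windows were found for 5 of the 9 genes. The other 3 were those of *Icam1* (TATAAA once and GGGCGG 2 times on the reverse strand), *Itga4* (GGGCGG once) and *Sele* (TATAAA once and GAGGAA once on the reverse strand). A match is a description of the letters and not a bound site.

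The *Selp*-bearing cells of the monocyte cluster were compared with the other cells of that cluster in the same library at 1000 UMIs per cell, 32 against 549 cells at 7 dpi and 24 against 221 at 28 dpi. These are cells of 1 library each and the groups were set by *Selp*, so the values are a description. *Itgam* was higher in them by 2.21 (1.65, 2.73) at 7 dpi and 2.38 (1.55, 3.17) at 28 dpi on the log2 scale. *Itgb2* was higher by 1.39 (0.77, 1.96) and 1.35 (0.51, 2.12). *Itgal* had 0 UMIs in the *Selp*-bearing cells of both libraries, against 73 and 21 in the others. The Mac-1 chains were thus high in these cells and the LFA-1 alpha chain was not detected, but at 28 dpi a count of 0 in 24 thinned cells could not show a difference. The genes highest in them at 7 dpi were *Prg4* (6.18), the chemokine gene *Cxcl13* (5.84) and the lipoxygenase gene *Alox15* (5.81), and in the 28 dpi library, which was not used to pick these genes, the values were 3.99, 3.48 and 4.54. The monocyte chemokine receptor gene *Ccr2* was at -3.53 at 7 dpi with 2 UMIs. The monocyte markers *Plac8* and *Ly6c2* had 0 UMIs in them at 7 dpi, against 480 and 187 in the others, and 2 UMIs each at 28 dpi. Of the 6 markers fixed for monocytes or dendritic cells, *Ms4a4c* also had 0 UMIs in both libraries, while *Chil3* had 6 and *Cd209a* 3 at 7 dpi, against 136 and 77 in the others, and 0 at 28 dpi. The *Selp*-bearing cells thus held few UMIs of most markers that name the cluster. The class II gene *H2-Ab1* was at -3.38 at 7 dpi and -6.48 at 28 dpi. Platelets store P-selectin, and their 5 markers summed to 445, 0.459 and 143 CPM in the monocyte cluster on vehicle and 965, 15.2 and 3.21 CPM on PLX5622, highest in the sham libraries, where *Selp* was at 0. All 5 were at 0 UMIs in the *Selp*-bearing cells of both libraries. The platelet factor gene *Pf4* is not among those 5 and was one of the highest genes of these cells at 7 dpi. It had 122 UMIs in them at 7 dpi (3812.5 CPM, against 413 CPM in the others). At 28 dpi it had 128 UMIs (5333 CPM, against 1023 CPM in the others). The source of the *Pf4* UMIs was not tested. Of the 6 endothelial markers, *Pltp* had 24 UMIs in the *Selp*-bearing cells at 7 dpi, higher than in the others by 1.59 (0.90, 2.22), and the remaining 5 had 0. At 28 dpi *Pltp* was higher by 1.32 (0.57, 2.02), and *Flt1* had 2 UMIs in the *Selp*-bearing cells against 0 in the others. Without the cells with 3 or more endothelial-marker UMIs, which were 86 of 602 at 7 dpi and 27 of 75 in sham, the floor-based ratio of 7 dpi to sham was 0.86 on the log2 scale in place of 2.29. Leaving out sham cells also raises the CPM of the floor. Before thinning, median depth was 3785.5 UMIs in *Selp*-bearing cells against 3013 in the others at 7 dpi, and 3969.5 against 1909 at 28 dpi.

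Over the whole monocyte cluster, *Alox15* and *Prg4* were highest in the libraries with *Selp*. *Alox15* was at 30.7, 193 and 665 CPM in the sham, 7 dpi and 28 dpi vehicle libraries and at 0 UMIs in all 3 PLX5622 libraries. *Prg4* was at 4.39, 212 and 682 CPM on vehicle, and on PLX5622 it had 1 UMI at 7 dpi and 0 in the other two. *Itga6*, another of the highest genes of these cells, was less restricted, at 50.5, 164 and 259 CPM on vehicle and 12.5, 126 and 28.9 CPM on PLX5622. *Itgam* in monocytes was at 424, 322 and 334 CPM on vehicle and 464, 164 and 99.5 CPM on PLX5622, a log2 ratio of PLX5622 to vehicle of -0.98 (-1.46, -0.53) at 7 dpi and -1.75 (-2.34, -1.20) at 28 dpi. *Itgam* was highest in the sham libraries, where *Selp* was at 0. *Alox15*, *Prg4*, *Cxcl13*, *Itga6*, *Pf4*, *Ccr2* and *H2-Ab1* were named after their values were seen. Fewer monocytes of one kind and less RNA per cell cannot be told apart in these sums.

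**Figure D2:**
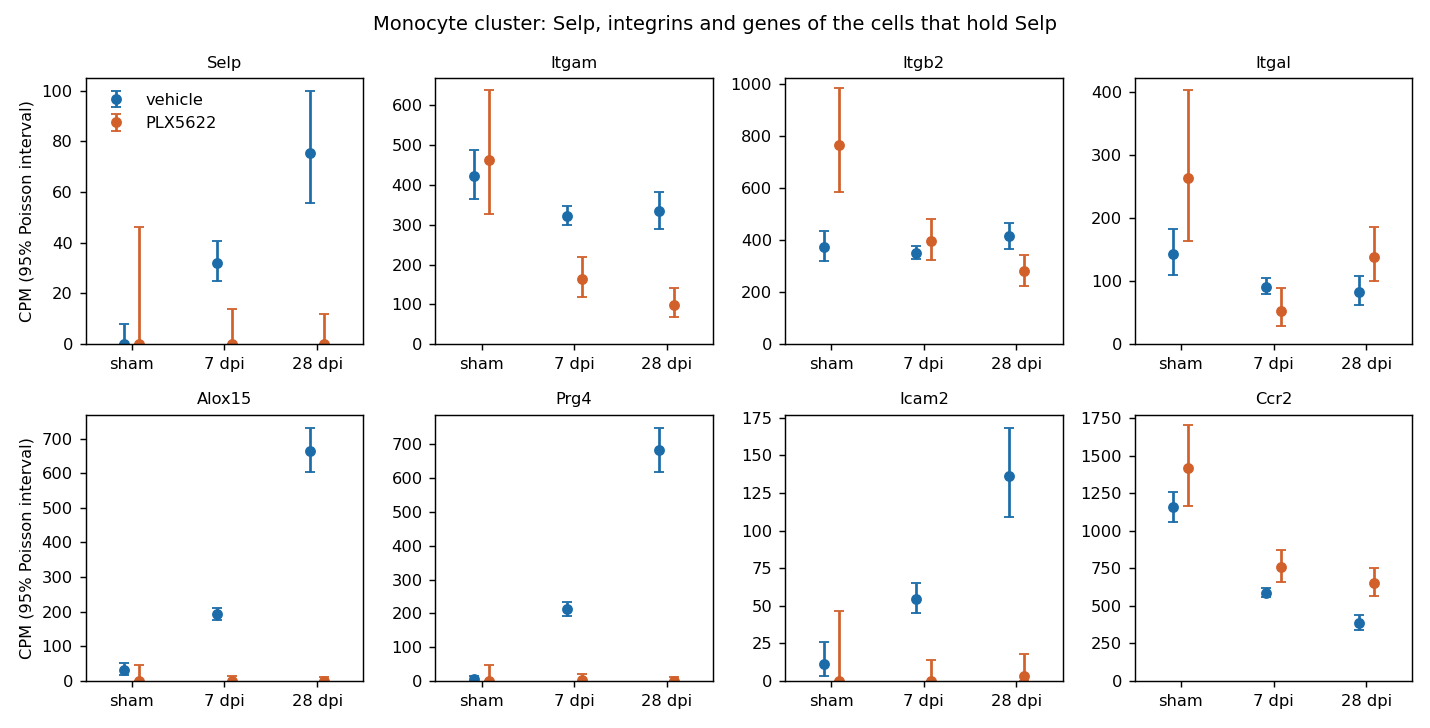
CPM in the monocyte cluster by condition (x axis: sham, 7 dpi, 28 dpi) for *Selp*, 3 integrin chains, and *Alox15*, *Prg4*, *Icam2* and *Ccr2*; points are single libraries on vehicle (blue) or PLX5622 (orange) and bars are 95% Poisson intervals. *Selp* is above 0 only in the 7 dpi and 28 dpi vehicle libraries, and *Alox15* and *Prg4* are high in the same 2.

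*Selplg* (chromosome 5, 113817798 to 113832528, minus strand) had its highest level in microglia. There it was at 1899 CPM (3981 UMIs in 674 cells) in the sham vehicle library, 585 CPM at 7 dpi and 863 CPM at 28 dpi. On PLX5622 it was at 2436, 895 and 1219 CPM in sham, 7 dpi and 28 dpi, from 29, 61 and 126 cells. Sham was highest and 7 dpi lowest on both diets, and each PLX5622 library was above its vehicle counterpart. The log2 ratio to sham on vehicle was -1.70 (-1.76, -1.64) at 7 dpi and -1.14 (-1.20, -1.08) at 28 dpi, and that of PLX5622 to vehicle 0.36 (0.20, 0.52) in sham, 0.61 (0.45, 0.77) at 7 dpi and 0.50 (0.37, 0.63) at 28 dpi.

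In microglia of the vehicle libraries, 2 of the 6 members compared were past 2-fold at 7 dpi against sham, *Selplg* lower and *Itga4* higher, where 28.1% of 8332 genes were past it. At 28 dpi they were again *Selplg* and *Itga4*, 2 of 6, where 18.1% of 8708 genes were past it. Both comparisons share the sham library. The median of all genes was itself displaced in microglia, to -0.57 at 7 dpi and -0.46 at 28 dpi, against medians of -0.66 and -0.47 over the members. Relative to that displacement *Selplg* was at -1.13 and -0.68, and with edgeR TMM or DESeq2 scaling its ratio at 28 dpi was -0.71 and -0.68, under 2-fold. *Vcam1*, at 7.16, 5.48 and 10.97 CPM on vehicle, then came past 2-fold at 28 dpi, with a ratio of 1.07 under DESeq2 scaling against 0.62 (-0.18, 1.51). *Itga4* was at 2.86 CPM (6 UMIs), 15.8 CPM and 15.3 CPM on vehicle, a log2 ratio of 2.47 (1.30, 3.95) and 2.41 (1.25, 3.89), low at each time next to the 252 CPM of T cells. In the same cells the summed microglia markers (6 genes) were at 19224, 6819 and 7581 CPM on vehicle and 19917, 9169 and 8532 CPM on PLX5622, while the 6 MDM markers were at 59.6, 4286 and 4252 CPM on vehicle and 14.1, 2006 and 933 CPM on PLX5622. Their part in the result was not tested.

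*Itgam* (chromosome 7, 128062640 to 128118491, plus strand) in microglia was at 782, 417 and 470 CPM on vehicle and 798, 443 and 603 CPM on PLX5622. Its ratio to sham was -0.91 (-0.99, -0.82) and -0.73 (-0.82, -0.65) on vehicle, or -0.33 and -0.28 relative to the median gene. *Itgb2* (chromosome 10, 77530329 to 77565708, plus strand), the shared beta chain, was at 362, 249.4 and 313 CPM on vehicle and 381, 318 and 309 CPM on PLX5622. *Itgb2* had a ratio to sham of -0.54 and -0.21 on vehicle, which turned to 0.04 and 0.25 relative to the median gene. *Itgam* was thus highest in sham on both diets by less than 2-fold, and the direction for *Itgb2* depended on the scaling. *Itgal* was low in microglia, with 3, 36 and 46 UMIs on vehicle and 0, 0 and 2 on PLX5622. On vehicle its log2 ratio to sham was 1.897 (0.235, 4.241) at 7 dpi and 2.019 (0.382, 4.349) at 28 dpi, higher at both times. Both ratios rest on 3 sham UMIs, and both pairs of libraries fell short of the UMI minimum for a comparison.

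**Figure D3:**
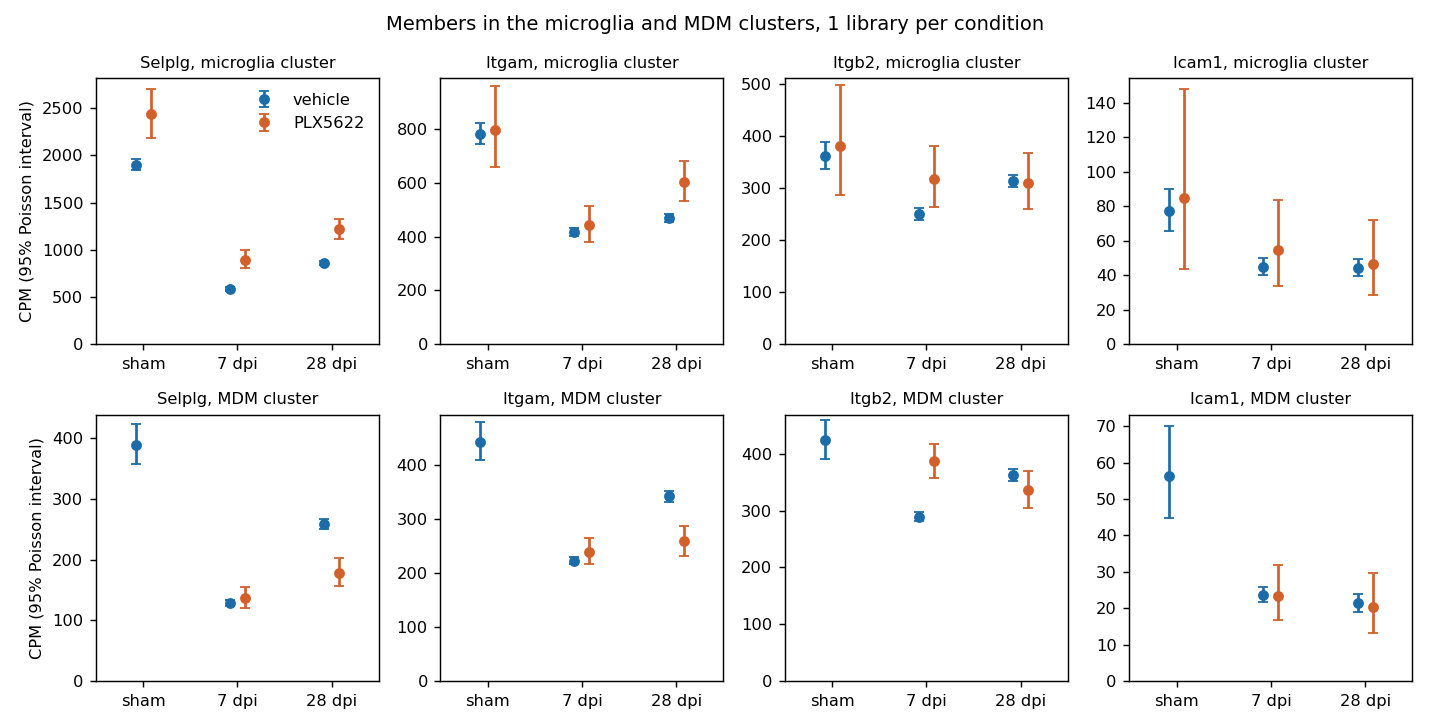
CPM of *Selplg*, *Itgam*, *Itgb2* and *Icam1* in the microglia (top) and MDM (bottom) clusters by condition (x axis), 1 point per library on vehicle (blue) or PLX5622 (orange) with 95% Poisson intervals; the sham PLX5622 library is left out of the MDM row because it held 9 cells. *Selplg* in microglia is highest in sham and lowest at 7 dpi on both diets.

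In MDMs of the vehicle libraries, 3 of the 7 members compared were past 2-fold at 7 dpi against sham, each lower: *Selplg*, *Icam1* and *Vcam1*, where 15.6% of 9498 genes were past it. *Selplg* was at 389 CPM in sham, 129 at 7 dpi and 258 at 28 dpi, a log2 ratio of -1.60 (-1.73, -1.46) and -0.59 (-0.72, -0.46). At 28 dpi, 2 of 7 were past 2-fold, *Icam1* and *Vcam1*, where 8.62% of 9009 genes were. *Icam1* was at 56.4 CPM (80 UMIs), 23.6 and 21.4 CPM, a ratio of -1.25 (-1.60, -0.89) and -1.40 (-1.76, -1.02). At 7 dpi its ratio was -0.98 relative to the median gene, -0.95 with TMM scaling and -0.96 with DESeq2 scaling, each under 2-fold. *Vcam1* was at 12.0 CPM (17 UMIs), 4.08 and 4.76 CPM, a ratio of -1.56 (-2.32, -0.71) and -1.33 (-2.12, -0.47). The median over all genes was -0.27 at 7 dpi and -0.26 at 28 dpi, and over the members -0.99 and -0.38. In this cluster the microglia markers were at 8738 CPM in sham against 2793 at 7 dpi and 4265 at 28 dpi, and the MDM markers at 10258 against 37808 and 21776. The 185 sham MDMs thus carried more of the microglia genes than those after injury, and the part of this in the result was not tested.

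*Itgam* in MDMs was at 444, 223 and 342 CPM on vehicle and *Itgb2* at 424, 289 and 363 CPM, both lowest at 7 dpi and within 2-fold of sham. On PLX5622, *Itgam* was at 240 and 259 CPM and *Itgb2* at 387 and 336 CPM at 7 and 28 dpi. *Itga4* (chromosome 2, 79255426 to 79333114, plus strand), the alpha chain of VLA-4, was at 31.0, 37.98 and 26.1 CPM on vehicle and 48.7 and 38.9 CPM on PLX5622 at 7 and 28 dpi.

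Between the diets, 2 of 7 members in MDMs were past 2-fold at 7 dpi, where 4.14% of 9473 genes were, and 1 of 7 at 28 dpi, where 4.85% of 8968 genes were. *Itgal* (chromosome 7, 127296139 to 127335137, plus strand), the alpha chain of LFA-1, was at 14.1, 14.04 and 12.0 CPM in MDMs of the sham, 7 dpi and 28 dpi vehicle libraries, and at 33.8 CPM (25.7, 43.6) in those of the 7 dpi PLX5622 library and 15.5 CPM at 28 dpi. Only the 7 dpi PLX5622 library stood above the rest, from 59 UMIs in 34 of 100 cells, with a log2 ratio to vehicle of 1.27 (0.84, 1.68). In those 100 cells the 3 T cell markers were at 0 UMIs, and the 6 markers of monocytes or dendritic cells summed to 165 CPM against 66.2 CPM on vehicle. The cells were also deeper, with a median of 15945 UMIs against 5777. The part of the markers and of depth in the result was not tested. *Vcam1* in MDMs on PLX5622 had 1 UMI at each of 7 and 28 dpi, a ratio of -2.83 (-8.15, -0.31) and -2.61 (-7.94, -0.09). *Itga4* was at 0.36 (0.02, 0.68) and 0.57 (0.12, 1.00), and *Selplg* at 0.08 (-0.11, 0.28) and -0.53 (-0.73, -0.34).

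In monocytes of the vehicle libraries, 1 of 7 members was past 2-fold at 7 dpi against sham, *Selp* as given above. Over all genes, 11.4% of 5476 were. At 28 dpi it was 0 of the 5 members compared, where 8.25% of 3053 genes were. *Selp* was not among those 5, because its 48 UMIs at 28 dpi and 0 in sham fell short of the minimum for a comparison. Against the floor in sham, its log2 ratio at 28 dpi was 3.52, with a lower bound of 3.16 from counting error. *Itgal* in monocytes was at 143, 91.3 and 83.1 CPM and *Itga4* at 261, 154 and 160 CPM. Both were highest in sham, with ratios of -0.64 (-1.05, -0.22) and -0.76 (-1.07, -0.45) at 7 dpi. On PLX5622 *Itgal* was at 263, 53.3 and 138 CPM and *Itga4* at 376, 87.5 and 144 CPM, in CPM again highest in sham. That sham library held 14 monocytes, and 3 cells held 13 of 21 *Itgal* UMIs and 26 of 30 *Itga4* UMIs. Before thinning, *Itgal* was in 57.1%, 27.6% and 25.4% of cells on PLX5622. *Itga4* was in 35.7%, 48.3% and 42.9%, lowest in sham. *Itgb2* in monocytes was at 373, 351 and 414 CPM on vehicle. Among neutrophils, *Itgal* was at 319, 275 and 182 CPM, *Itgam* at 828, 427 and 496 CPM and *Itgb2* at 577, 395 and 391 CPM in the sham, 7 dpi and 28 dpi vehicle libraries. Sham neutrophils on vehicle thus held the most of each of these 3 integrin genes, while *Selplg* was at 337, 336 and 350.1 CPM. On PLX5622, from 11, 12 and 32 neutrophils, *Itgal* was at 202, 188 and 295 CPM, *Itgam* at 569, 565 and 628 CPM and *Itgb2* at 624, 339 and 589 CPM, with no such order. The 10 myeloid genes in the neutrophil cluster were at 7455, 16412 and 17857 CPM on vehicle, lowest in sham, and their part in the result was not tested. In B cells, *Itga4* was at 218, 98.2 and 100.3 CPM on vehicle and 171, 207 and 138 CPM on PLX5622, and *Selplg* at 205, 148 and 201 CPM on vehicle and 46.6, 66.2 and 32.4 CPM on PLX5622. *Selplg* in B cells was thus lower in each PLX5622 library, from 3 to 8 UMIs. The 10 myeloid genes in that cluster were also lower there, at 3795, 19053 and 19616 CPM on vehicle and 948, 8815 and 1838 CPM on PLX5622. *Selplg* per 1000 myeloid UMIs was 54.0, 7.77 and 10.2 on vehicle and 49.2, 7.51 and 17.6 on PLX5622, in sham, 7 dpi and 28 dpi. The part of the myeloid genes in the result was not tested.

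In T cells, the alpha chains of LFA-1 and VLA-4 were both lower after injury on vehicle. *Itgal* was at 306 CPM (244, 378) in sham, 119 at 7 dpi and 151 at 28 dpi, and *Itga4* at 396 CPM (325, 477), 138 and 186. The ratios to sham were -1.36 (-1.92, -0.82) and -1.02 (-1.46, -0.58) for *Itgal* and -1.52 (-2.03, -1.03) and -1.09 (-1.48, -0.70) for *Itga4*. On PLX5622, *Itgal* was at 187, 267 and 214 CPM and *Itga4* at 236, 277 and 267 CPM, with no lower level after injury. For the PLX5622 to vehicle ratio at 7 dpi, 2 of 4 members were past 2-fold, where 20.8% of 1135 genes were: *Itgal* at 1.17 (0.41, 1.90) and *Itga4* at 1.01 (0.28, 1.71), from 26 and 27 UMIs in 23 PLX5622 cells. The 5 natural killer markers of the cluster were at 6576, 2064 and 1703 CPM on vehicle and 3615, 3850 and 2713 CPM on PLX5622, so that they too were lower after injury on vehicle. The same T cell cluster carried the 10 myeloid genes at 4503, 19663 and 17434 CPM on vehicle and 1935, 3254 and 2912 CPM on PLX5622. Without the T cells that held 3 or more of those UMIs (124 of 153 at 7 dpi on vehicle, 16 of 23 on PLX5622), no member reached 50 UMIs, and the ratio was 0.09 for *Itgal* and 1.00 for *Itga4*. With TMM scaling the ratios were 0.85 and 0.69. The part of both marker lists in these results was not tested. At 28 dpi, 1 of 5 members was past 2-fold, where 13.8% of 2496 genes were: *Itgam*, at 157 CPM on vehicle and 25.5 CPM on PLX5622. *Itgam* is a gene of the myeloid cells in this pool, and the part of the myeloid genes in this result was not tested.

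**Figure D4:**
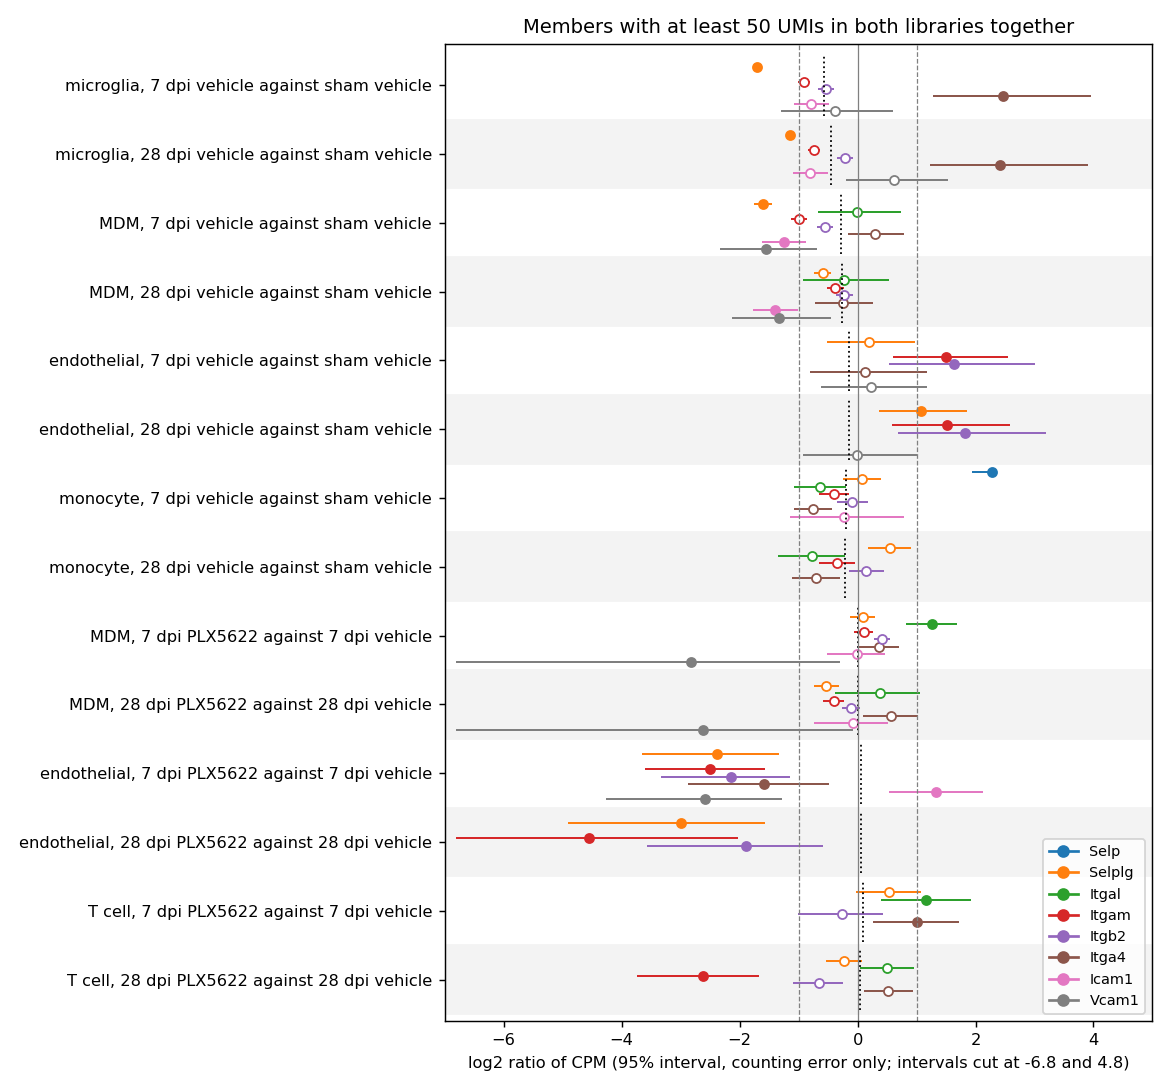
Log2 ratios of CPM between 2 libraries (x axis) for the members with at least 50 UMIs in both together, in the 14 comparisons (rows); lines are 95% intervals, filled points are past 2-fold, the dotted line is the median of all genes compared and dashed lines mark 2-fold. In the endothelial cluster all 6 members compared at 7 dpi between the diets are filled, with *Icam1* alone to the right.

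On the vessel side, the counter-receptors were low in endothelial cells. *Icam1* (chromosome 9, 21015940 to 21028814, plus strand), which LFA-1 and Mac-1 bind, was at 38.8 CPM (12 UMIs), 21.2 and 23.7 CPM in the sham, 7 dpi and 28 dpi vehicle libraries. On PLX5622 it was at 49.3, 53.1 and 12.9 CPM (29, 30 and 3 UMIs). The intervals of most of these libraries overlapped, and the 7 dpi PLX5622 library was above the 7 dpi vehicle library, with a ratio of 1.33 (0.55, 2.11). That value rests on few cells: 10 of its 30 UMIs were in 1 cell and 20 in 3 cells. In microglia, which had the highest level of *Icam1*, it was at 77.3, 44.7 and 44.3 CPM on vehicle and 84.7, 54.8 and 46.5 CPM on PLX5622.

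*Vcam1* (chromosome 3, 116110020 to 116129688, minus strand), which VLA-4 binds, was at 45.3 CPM (14 UMIs), 52.9 (75) and 45.1 (40) in endothelial cells of the sham, 7 dpi and 28 dpi vehicle libraries. On PLX5622 it was at 119 CPM (92.7, 150) in sham, 8.85 CPM (5 UMIs) at 7 dpi and 0 of 65 cells at 28 dpi, where the interval reached 15.9 CPM. It was level across injury on vehicle, and high in sham and low after injury on PLX5622. The ratio of PLX5622 to vehicle was 1.39 (0.55, 2.34) in sham and -2.58 (-4.24, -1.29) at 7 dpi, and the ratio of 7 dpi to sham within PLX5622 was -3.75 (-5.42, -2.46). Of the 70 UMIs in sham PLX5622, 41 were in 3 of the 14 cells that held it and 23 in 1. In the fibroblast and pericyte cluster *Vcam1* was at 17.3, 72.0 and 42.5 CPM on vehicle from 4, 3 and 4 UMIs, and on PLX5622 at 206 CPM from 22 UMIs in sham and 0 at both injury times. The pericyte markers summed to 97.1, 800.4 and 2111 CPM in the endothelial cluster on vehicle and to 1892, 729 and 2722 CPM on PLX5622, and their part in the result was not tested. Without the endothelial cells that carried 3 or more myeloid UMIs, the ratio at 7 dpi was -3.56.

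The highest *Vcam1* level outside vessels was in astrocytes. There it was at 164, 114 and 164 CPM on vehicle and 172, 162 and 277 CPM on PLX5622, found in 20.5% to 32.4% of cells before thinning. Levels differed by less than 2-fold from sham in all 4 injured libraries, and the highest was 28 dpi PLX5622, with a ratio to vehicle of 0.75 (0.16, 1.33). Astrocytes held 66.0% of the *Vcam1* UMIs of the sham vehicle library but 8.64% at 7 dpi and 22.7% at 28 dpi, with 310, 69 and 245 astrocytes in the 3 libraries. Over the whole pool *Vcam1* was at 27.0, 6.81 and 10.8 CPM on vehicle and 76.4, 5.97 and 12.2 CPM on PLX5622. After thinning, *Vcam1* was found in 15.7% of astrocytes and 3.10% of 870 endothelial cells.

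Endothelial cells were also divided by a UMI of the venous markers *Vwf*, *Ackr1*, *Slc38a5*, *Lrg1* and *Nr2f2*, since leukocytes enter mainly through venules. At 1000 UMIs per cell, *Vcam1* was at 66.7 CPM (42.7, 99.2) in the 360 cells with such a UMI and 27.5 CPM (15.0, 46.1) in the 510 without, and *Icam1* at 36.1 CPM (19.2, 61.8) and 23.5 CPM (12.2, 41.1). The intervals of both genes overlapped between the groups, which does not show equal levels, and no interval of the ratio was computed. The groups pool the 6 libraries, and the direction for *Icam1* differed between them. With and without a venous UMI, *Icam1* was at 105 and 0 CPM in sham vehicle (4 and 0 UMIs). It was at 10.3 and 34.0 CPM at 28 dpi on vehicle (1 and 7 UMIs).

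**Figure D5:**
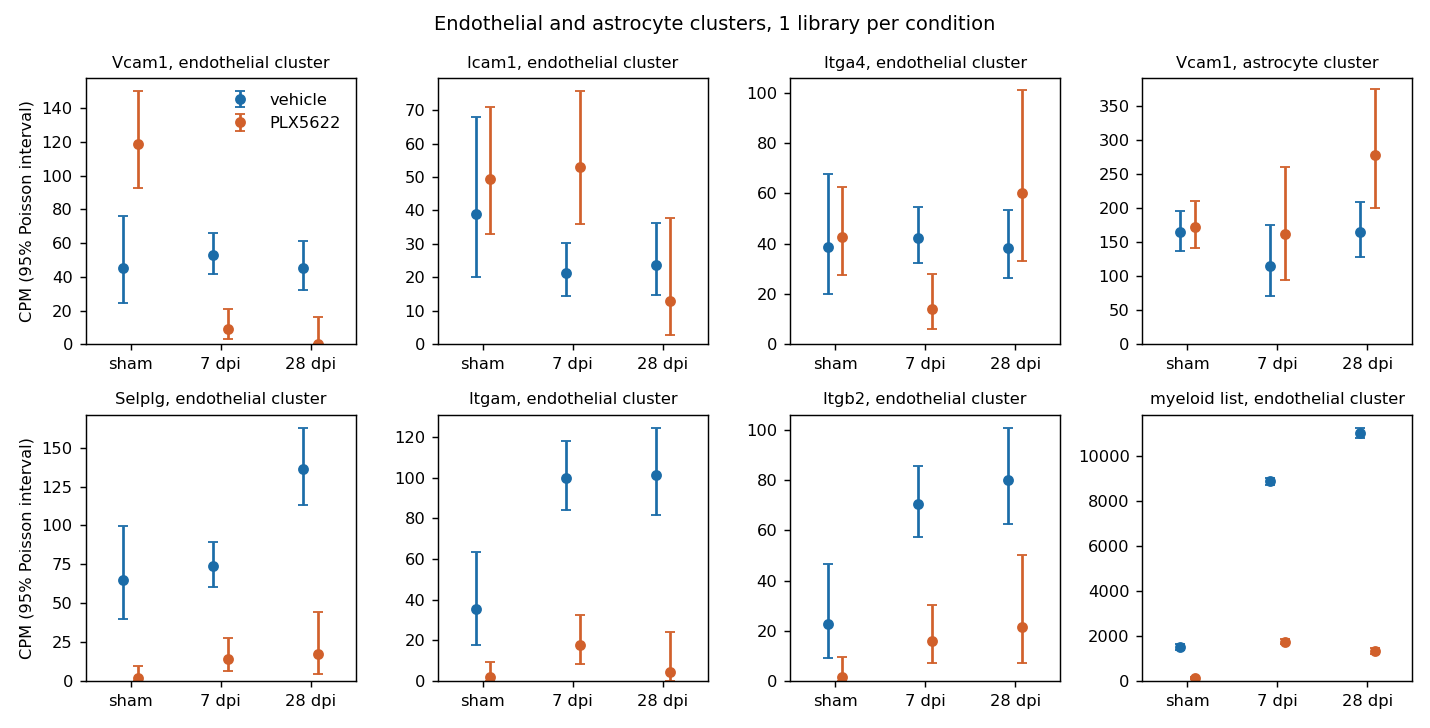
CPM by condition (x axis) of *Vcam1*, *Icam1*, *Itga4*, *Selplg*, *Itgam* and *Itgb2* in the endothelial cluster, of *Vcam1* in the astrocyte cluster, and of the summed 10 myeloid genes in the endothelial cluster; points are single libraries on vehicle (blue) or PLX5622 (orange), bars are 95% Poisson intervals. *Vcam1* is highest in sham PLX5622 endothelial cells, and *Itgam* and *Itgb2*, but not *Itga4*, are higher after injury on vehicle together with the myeloid genes.

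*Itgam* and *Itgb2* in the endothelial cluster were high and low in the same libraries as the myeloid genes found there. In the vehicle libraries, 2 of 5 members were past 2-fold at 7 dpi against sham, *Itgam* and *Itgb2*, where 10.5% of 5223 genes were, and 3 of 4 at 28 dpi, with *Selplg* added, where 8.93% of 4077 genes were. *Itgam* in that cluster was at 35.6, 100.1 and 101 CPM on vehicle and 1.70, 17.7 and 4.30 CPM on PLX5622. The 10 myeloid genes, which endothelial cells should lack, were at 1504, 8866 and 11031 CPM on vehicle and 122, 1742 and 1320 CPM on PLX5622. Per 1000 myeloid UMIs the cluster held 11.3 *Itgam* UMIs at 7 dpi on vehicle, against 8.34 in microglia and 6.08 in MDMs of that library. In the sham vehicle library it held 23.7, against 15.9 in microglia and 10.5 in MDMs. The part of the myeloid genes in the results of the endothelial cluster was not tested. Cells with 3 or more myeloid UMIs were 9 of 82, 187 of 351 and 200 of 420 on vehicle, and without them no member reached 50 UMIs, with *Itgam* at a ratio of 0.98 at 7 dpi and 1.02 at 28 dpi and *Selplg* at 0.18 at 28 dpi. Between the diets, 6 of 6 members were past 2-fold at 7 dpi, where 6.97% of 5608 genes were, with *Selplg* (-2.39), *Itgam* (-2.50), *Itgb2* (-2.15), *Itga4* (-1.58) and *Vcam1* lower on PLX5622 and *Icam1* higher. Without the carriers of myeloid UMIs, no member reached 50 UMIs, and the ratio was -0.39 for *Itgam* and 1.51 for *Icam1*. At 28 dpi, 3 of 3 were lower, *Selplg* (-2.99), *Itgam* (-4.56 with 1 UMI) and *Itgb2* (-1.89), where 7.01% of 3821 genes were past 2-fold. In CPM the other leukocyte genes did not move with the myeloid genes throughout. *Selplg* in endothelial cells was at 64.7 CPM in sham and 74.0 CPM at 7 dpi on vehicle. That sham value rests on few cells: 16 of its 20 UMIs were in 1 cell. The share of cells with *Selplg* was 6.10% of 82 in sham and 15.1% of 351 at 7 dpi, higher after injury as the myeloid genes were. *Itga4* in endothelial cells was at 38.8, 42.3 and 38.3 CPM on vehicle and 42.5, 14.2 and 60.2 CPM on PLX5622, and its ratio at 7 dpi was -1.56 without the cells that carried myeloid UMIs.

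Of 55 other genes of rolling, arrest and diapedesis, 54 were in the table. Past 2-fold in microglia at 7 dpi were 2 higher and 9 lower of 28, where 4.10% of all genes were higher and 24.0% lower, with *Alcam* (2.66) and *Itgax* (1.42) the highest and *Itga9* (-2.36) and *Tpst2* (-1.88), which sulfates PSGL-1, the lowest. At 28 dpi in microglia they were 3 higher and 4 lower of 28 (3.70% and 14.4% of all genes), *Alcam* at 3.87, *Itgax* at 2.72, *Itga9* at -1.79 and *Tpst2* at -1.76. In MDMs they were 2 higher and 7 lower of 32 at 7 dpi (3.26% and 12.3% of all genes), with *Rasgrp2* at 3.67 on 1 sham UMI, *Itgav* at 1.09, *Cd34* at -2.55 and *F11r* at -2.33. At 28 dpi in MDMs they were 3 higher and 4 lower of 28 (1.27% and 7.36% of all genes), with *Alcam* at 1.11, *Itgax* at 1.11, *Itga9* at -1.82 and *Tpst2* at -1.48. *Tpst2* was thus past 2-fold lower in both myeloid clusters at both times. *Selplg* was too, except in MDMs at 28 dpi, where it was at -0.59. In microglia at 28 dpi *Selplg* was under 2-fold with TMM or DESeq2 scaling. Median ratios of this list were -0.58 and -0.51 in microglia and -0.06 and -0.33 in MDMs.

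In monocytes, 2 genes of the list were higher at both times, *Icam2* (2.30 at 7 dpi and 3.64 at 28 dpi, from 5 sham UMIs) and *Itga6* (1.70 and 2.36), where 3.65% and 2.52% of all genes were higher. Lower in monocytes were 5 of 28 at 7 dpi, with the sialophorin gene *Spn* at -1.56, and 1 of 21 at 28 dpi, *Cd44* at -1.25, where 7.72% and 5.73% of all genes were lower. In endothelial cells, 2 of 31 were higher at 7 dpi, *Sirpa* (2.46) and *Itgav* (1.53), and 4 lower, led by the vascular sialomucin genes *Emcn* (-1.15) and *Cd34* (-1.10), where 5.36% of all genes were higher and 5.11% lower. At 28 dpi 2 of 25 were higher, *Itgax* at 4.09 and *Sirpa* at 3.21, both genes of myeloid cells, and 0 were lower (5.13% and 3.80% of all genes). Their medians were -0.17 and -0.52 in monocytes and -0.27 and -0.45 in endothelial cells.

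Between the diets, *Ackr1*, the venular chemokine carrier, was the 1 gene of 31 higher in endothelial cells on PLX5622 at 7 dpi, at 2.00, with 166 CPM against 41.6 on vehicle. *Apbb1ip* (-4.63) and *Cd44* (-1.45) were the lowest of 3 lower there, and at 28 dpi 4 of 24 were lower, led by *Apbb1ip* (-3.77) and *Itgax* (-3.68). Over all genes of that cluster, 1.98% were higher and 4.99% lower at 7 dpi, and 5.02% were lower at 28 dpi. In MDMs on PLX5622 at 7 dpi, 3 of 32 were higher, with *Itgax* at 2.01 and *Itgb7* at 1.13, and *Itgb3* was lower at -2.76 on 1 UMI. At 28 dpi, *Ezr* was higher at 1.44 and *Tpst1* (-1.80) and *Cd34* (-1.25) lower, 3 of 28. Over all genes of MDMs, 2.40% were higher and 1.74% lower at 7 dpi, and 2.98% and 1.87% at 28 dpi. In T cells, *Skap1*, an adapter of LFA-1 activation, was at 1.18 and *Sirpa* at -4.16 at 7 dpi, 2 of 14, and at 28 dpi 2 genes were higher, with *Itgb7* at 1.01, and 4 were lower, led by *Cd34* (-5.24) and *Sirpa* (-3.18), of 21. Over all genes of T cells, 5.99% were higher and 14.8% lower at 7 dpi, and 2.80% and 11.02% at 28 dpi. The medians were 0.25 and -0.12 in endothelial cells, 0.28 and 0.05 in MDMs and 0.69 and 0.44 in T cells.

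Over 66 sums of a cluster in a library with at least 20 cells, the levels most like each member were listed by Pearson r of log2(CPM + 10) among genes with at least 500 UMIs. The sums share libraries and depth, so the values are a description. *Selp* was most like *Alox15* (0.96) and *Cxcl13* (0.81), and *Selplg* like *Laptm5* (0.91) and *Fyb* (0.90). For the integrin chains, *Itgb2* was most like *Myo1f* (0.96) and *Fyb* (0.94), *Itgam* like *Fcgr3* (0.94) and *Slc15a3* (0.92), *Itgal* like *Spn* (0.91) and *Ly6c2* (0.90), and *Itga4* like *Itgb7* (0.82), which codes for its other beta chain, and *Runx3* (0.82). *Vcam1* was most like the astrocyte gap junction gene *Gjb6* (0.84) and *Pygm* (0.83). *Icam1* was least closely matched, by *Fam212a* (0.73) and *Gpr160* (0.69).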

How the data were processed

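RNA of dissociated spinal cord cells was captured on the 10X Chromium 3' platform, and the authors made UMI counts with Cell Ranger on the mouse genome (the processing notes name GRCm38 and mm10). The deposited count table holds raw UMI counts of 21016 cells and 16003 genes, and a deposited file gives each cell's library and cluster, made by the authors with Seurat. A gene seen in fewer than 3 cells of a library is at 0 there. The table holds cells above the stated upper limit of 3000 genes. Samples were grouped by the labels.

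Here UMIs were summed per cluster and library and divided by the total, with Python 3.11.15 (numpy 2.4.6, pandas 2.3.3, scipy 1.17.1, matplotlib 3.10.9). With 1 library per condition no test was run. Pairs of libraries were compared for genes with at least 50 UMIs, and the ratio code was tested on simulated counts. Scaling factors came from edgeR 4.0.16 and DESeq2 1.42.0 in R 4.3.3. Per comparison, all 9 members and up to 2 highest and 2 lowest genes of the other adhesion list past 2-fold were named. One gene that this rule names is not reported here. The members and lists were chosen with earlier results of these data known. Columns of no sample numbered 0. Intervals and floors cover counting error only.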

Additional observations from a re-analysis of the deposited data

Results flagged for a closer look

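*Selplg* moved in opposite directions in 2 clusters at 28 dpi against sham on vehicle: the log2 ratio was 1.07 (0.38, 1.84) in endothelial cells and -1.14 (-1.20, -1.08) in microglia. Of the 20 *Selplg* UMIs in sham endothelial cells, 16 were in 1 cell. The endothelial cluster held 10 myeloid genes at 1504 CPM in sham and 11031 CPM at 28 dpi.

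*Itga4* on PLX5622 against vehicle at 7 dpi was at 1.01 (0.28, 1.71) in T cells, from 27 and 51 UMIs, and at -1.58 (-2.86, -0.51) in endothelial cells, from 8 and 60 UMIs. Each pair was noted because the ratios lie on opposite sides of 0, the difference between clusters was not tested, and each condition is 1 library.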

How the results depend on the processing

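No paired analysis was possible because each condition is 1 library and the labels give no replicate numbers shared between the groups.

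Counts of members past 2-fold were recomputed under 8 alternatives in each of the 14 comparisons. Small shifts between counts above 0 are not all listed. Leaving out cells under 500 genes changed none of the 14 counts. With edgeR TMM or DESeq2 scaling, T cells on PLX5622 at 7 dpi went from 2 to 0 and MDMs at 7 dpi from 3 to 2, since *Icam1* was then at -0.95 and -0.96. Microglia at 28 dpi stayed at 2 with *Selplg* replaced by *Vcam1*, and the other counts stayed. Thinning to 1000 UMIs, which leaves fewer UMIs to count, gave 1 in microglia at 7 and 28 dpi and in MDMs on PLX5622 at 7 dpi, 1 instead of 0 in monocytes at 28 dpi, and 0 in endothelial cells at 7 and 28 dpi, monocytes at 7 dpi, MDMs on PLX5622 at 28 dpi, and endothelial and T cells on PLX5622 at both times. In endothelial cells, and in T cells on PLX5622 at 7 dpi, no member then reached 50 UMIs.

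With each cell weighted alike, microglia at 28 dpi gave 1, monocytes 2 at each time and T cells on PLX5622 at 7 dpi 0. A minimum of 100 UMIs gave 1 in MDMs at 28 dpi and 0 in monocytes at 7 dpi. It also left out *Vcam1* in MDMs at 7 dpi and *Itgb2* in endothelial cells at 28 dpi, both on vehicle against sham. In MDMs on PLX5622 it gave 1 and 0 at 7 and 28 dpi. It gave 3 and 1 in endothelial cells on PLX5622 and 0 in T cells on PLX5622 at 7 dpi. A minimum of 10 UMIs gave 1 in monocytes at 28 dpi, which was *Selp*. It also added *Itgal*, higher in microglia at 7 and 28 dpi against sham. Lower on PLX5622, it added *Itgal* at 7 dpi and *Vcam1* at 28 dpi in endothelial cells, and *Itgam* in T cells at 7 dpi. Without cells that carried markers of the other compartment, endothelial cells gave 0 in all 4 comparisons, T cells on PLX5622 0 at both times, monocytes at 28 dpi 1, and MDMs on PLX5622 1 and 0 at 7 and 28 dpi; in endothelial cells, and in T cells on PLX5622 at 7 dpi, no member then reached 50 UMIs. The cause of the other shifts was not tested.

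Of the single log2 ratios none changed sign while past 2-fold. Of 79 ratios, 15 moved beyond their interval with TMM, 14 with DESeq2 and 23 with each cell weighted alike. All 79 stayed without cells under 500 genes. Fewer ratios could be formed in 2 settings: thinning to 1000 UMIs moved 33 and left 40. Leaving out cells with markers of the other compartment moved 12 and left 59. *Selp* in monocytes at 7 dpi went from 2.29 to 0.86 when cells with 3 or more UMIs of the 6 endothelial markers were left out. One of those markers, *Pltp*, had 24 UMIs in the *Selp*-bearing cells at 7 dpi. Of the 16 genes named most like a member, 6 stayed with a pseudocount of 1 CPM.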
